A study of Mus musculus with 8 samples.

Results

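Cluster #e2c holds endothelial cells that the study annotated as lining the portal vein of the adult mouse liver. Its members were the 114 cells that carried number 2 in the multilevel clustering of the endothelial cells and were not placed in the small community cluster #e5c, out of 1106 endothelial cells and 3491 cells in all. The liver cells of healthy male and female adult mice were dissociated, sorted into 384-well plates and sequenced with Smart-seq2, a full-length method that gives read counts for each gene of a cell. The endothelial cells came as 1 male and 1 female pool, enriched by antibody staining of CD31, VE-cadherin or both, or in part by a *Cldn5* GFP reporter, and the labels tied no cell to a mouse. Of the 114 cells, 63 came from the male pool and 51 from the female pool. Every plate held 1 sex, so that sex and plate cannot be told apart. #e2c was compared with the 654 cells of the sinusoidal clusters #e3, #e5, #e6 and #e8 and with the 152 cells of #e1, which is 1 of 2 clusters that the study assigned to the central vein.

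The portal vein brings blood from the gut and spleen to the liver, and this blood then passes through the sinusoids and leaves through the central veins. Sinusoidal endothelium is thin and perforated and takes up material from the blood with scavenger receptors, whereas portal and central veins are lined by a closed endothelium that rests on a wall of matrix and smooth muscle. The portal vein runs in the portal tract beside the hepatic artery and the bile duct, and it is the first liver vessel that is reached by compounds absorbed in the gut.

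The 114 cells had between 49951 and 638851 counts each. The median was 195173 counts and 3427 detected genes in the male pool and 316351 counts and 4514 genes in the female pool, and the summed counts were 14583328 and 16209836. The male cells were spread over 12 plates, but 42 of the 51 female cells came from 1 of 2 plates. Spike-in RNA took a median of 3.02% of the counts in male and 1.83% in female cells. No cell name occurred more than once. Levels are given as CPM, which are counts scaled to a total of 1000000, of the summed counts of a cluster in a pool, the male value before the female value. The clusters were made from these same transcriptomes, so all differences between clusters are descriptions. No p-value is printed, and the adjusted p behind a call serves as a threshold and not as a test of whether clusters differ.

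The markers that named these cells were high in both pools and low in the sinusoids. *Gja5*, which encodes the gap junction protein connexin 40, was at 489 and 600.2 CPM. *Cd34*, a sialomucin of vessel and progenitor cells, was at 321 and 739.7 CPM. *Vegfc*, a growth factor for lymphatic vessels, was at 404 and 481 CPM. These 3 genes stood at or below 9.14, 49.6 and 103 CPM, in that order, in every sinusoidal cluster and pool, so the groups did not overlap. *Adgrg6*, an adhesion G protein-coupled receptor, was at 403 and 521 CPM, against at most 74.5 CPM in the sinusoids. *Cyp1a1*, a cytochrome P450 monooxygenase of xenobiotic metabolism, was at 658 and 744 CPM, against at most 3.76 CPM in the sinusoids. These levels restate how the cluster was chosen and labelled. The markers differed in how they behaved in neighbouring clusters. The highest sinusoidal values of *Vegfc* and *Adgrg6* both lay in the female cells of #e5, and *Cd34* reached 49.2 and 155 CPM in #e1. In the 14 cells of #e5c, which the study assigned to vessels around the bile ducts, *Adgrg6* was at 0 and 3.91 CPM while *Cd34* was at 996 and 1664 CPM.

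**Figure D1:**
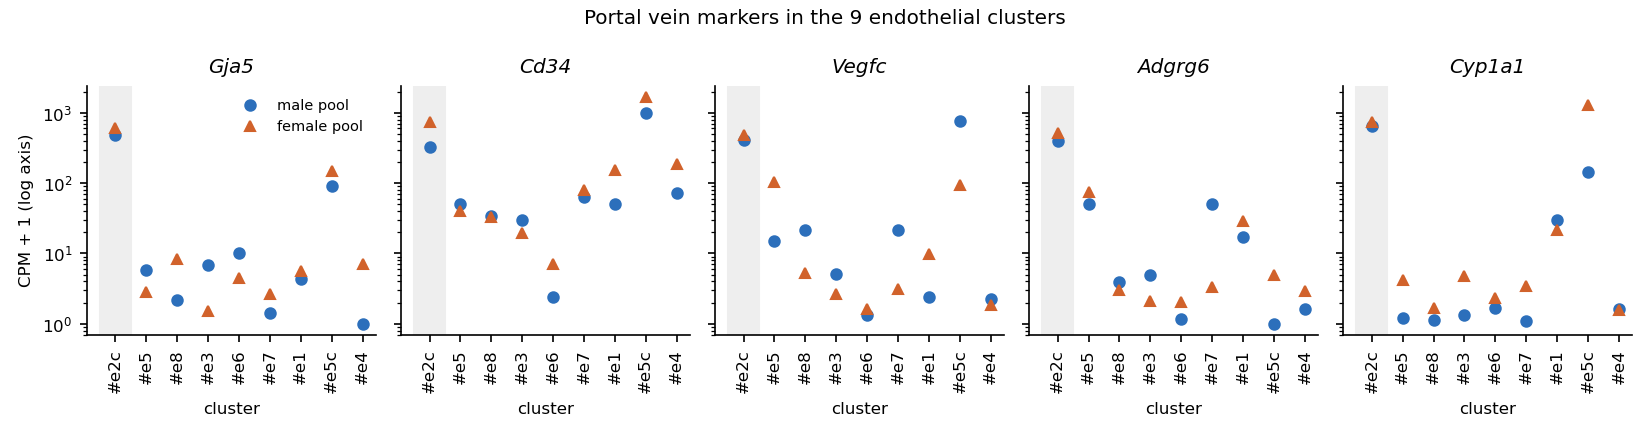
Level of the 5 portal vein markers in the 9 endothelial clusters, as CPM + 1 on a log axis; circles are the male and triangles the female pool, with 1 point for the summed cells of a cluster in a pool, and the grey band marks #e2c. *Gja5* and *Adgrg6* are highest in #e2c, at 489 and 600.2 CPM and at 403 and 521 CPM, while *Cd34* is higher in #e5c than in #e2c in both pools.

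Within #e2c, the markers were not found in every cell. At the study's detection limit of 20 counts, *Adgrg6* was detected in 68 of the 114 cells (59.6%, exact 95% interval 50.1 to 68.7%), *Gja5* in 59 (51.8%), *Vegfc* in 58 (50.9%), *Cyp1a1* in 55 (48.2%) and *Cd34* in 54 (47.4%). The same limit was passed in 1.99% of the sinusoidal cells for *Adgrg6*, 2.45% for *Gja5* and 5.81% for *Cd34*. *Cyp1a1* passed it in 0 of 654 sinusoidal cells, which allows a share of up to 0.459% when 3 counts are taken as the limit of a count of 0 (exact 95% upper limit 0.562%). At least 3 of the 5 markers passed the limit in 55 of 114 cells of #e2c, in 0 of 654 sinusoidal cells and in 0 of 152 cells of #e1, where a count of 0 allows up to 1.97% by the same limit (exact 95% upper limit 2.40%). None of the 5 did in 13 cells of #e2c (11.4%). After each cell was thinned to 50000 counts, at least 1 count of *Adgrg6* remained in 76.3% and of *Gja5* in 60.5% of the cells of #e2c, against 5.96% and 7.80% of the sinusoidal cells. Intervals and limits cover the error of counting cells only, since cells are not replicates and the labels tie none to a mouse. Reads without molecular identifiers are also not independent molecules.

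The markers also varied between plates. Over the 8 plates with at least 5 cells of #e2c, *Adgrg6* ran from 222 to 574 CPM with a median of 449.9 CPM. *Cyp1a1* ran much further, from 28.4 to 1343 CPM with a median of 646 CPM, and *Gja5* from 131 to 1687 CPM with a median of 559 CPM. On the 7 plates that also held at least 5 sinusoidal cells, all 5 markers were higher in #e2c than in the sinusoidal cells of the same plate, 7 times out of 7. On 2 of these plates the median number of detected genes was higher in #e2c than in its sinusoidal neighbours.

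**Figure D2:**
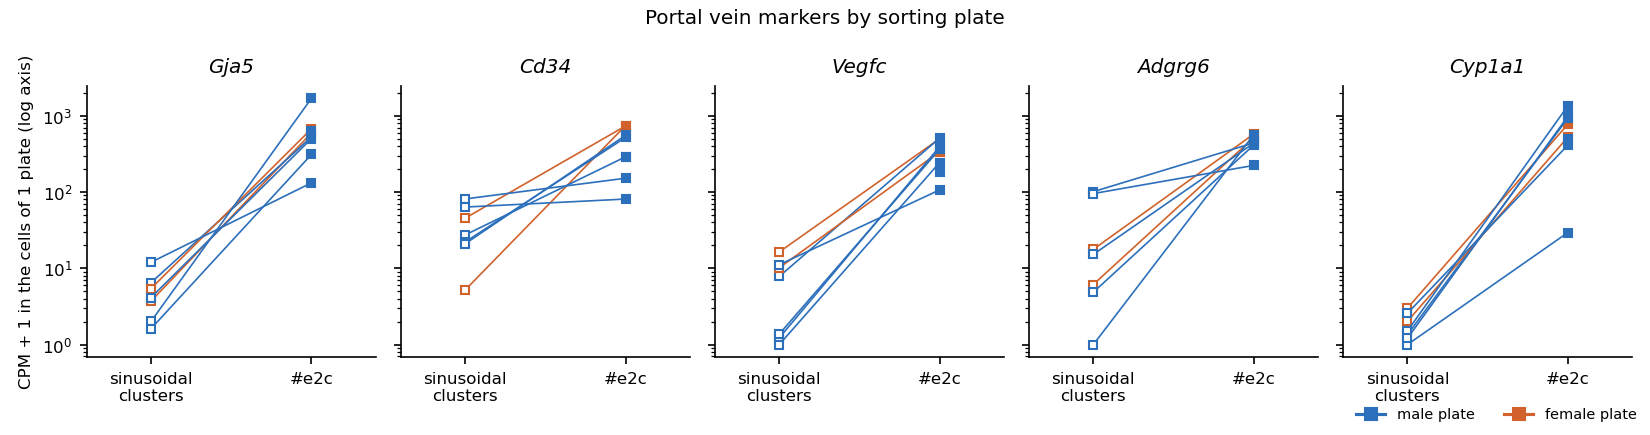
Level of the 5 markers on each of the 8 plates that held at least 5 cells of #e2c, as CPM + 1 on a log axis. Open squares are the sinusoidal cells, filled squares #e2c, and a line joins the values of 1 plate. The lines belong to the 7 plates that also held at least 5 sinusoidal cells, and 1 male plate has no line. Every line goes up for every gene, and the lowest value of *Cyp1a1* in #e2c is 28.4 CPM, on 1 male plate.

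Outside the endothelium, the 5 markers differed in how particular they were to #e2c. Among 18 groups of epithelial, immune and mesenchymal cells, *Gja5* reached at most 7.19 CPM and *Adgrg6* at most 19.3 CPM, in cholangiocytes. *Cyp1a1* stood at 20 CPM or more in 1 of the 18 groups, at 21.1 CPM in an immune group annotated "Cont", which also held *Vwf* at 300.8 and *Dll4* at 111 CPM. *Vegfc* did so in 9 groups, with a highest value of 159 CPM, and *Cd34* in 13 groups, with 1679 CPM in the *Wt1* fibroblasts.

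Compared with the sinusoids, #e2c was higher in *Sdc1*, *Cd200*, *Ehd2*, the fibulin genes *Fbln2* and *Fbln5* and the vascular tone genes *Edn1*, *Ednrb* and *Ace*, and lower in the receptor genes *Kit*, *Kdr* and *Stab2*. In an edgeR fit over the summed counts of the 9 clusters in both pools, 133 of 17793 genes were called higher in #e2c (0.747% of the genes tested) and 13 lower (0.0731%), where called means an adjusted p under 0.05 and at least a doubling. A rule on fold alone, at least 2-fold in both pools between #e2c and the mean of the 4 sinusoidal clusters with at least 20 CPM in both pools on the higher side, gave 461 genes higher (2.59%) and 575 lower (3.23%). Of the 133 called genes, 80 also met the rule on fold. With #e3 left out, whose female part held 6 cells, 52 genes were called higher. The markers themselves had log2 fold changes (± SE) of 9.36 ± 1.05 for *Cyp1a1*, 7.03 ± 0.98 for *Gja5*, 6.86 ± 1.03 for *Adgrg6*, 6.26 ± 0.90 for *Vegfc* and 4.80 ± 0.54 for *Cd34*. Without the male pool *Cyp1a1* stood at 7.97, and without the female pool *Adgrg6* stood at 6.13 and *Cd34* at 4.10.

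The highest of the called genes with at least 1 count in at least 50% of the cells of #e2c included the membrane proteins of the cell surface and of caveolae. *Sdc1*, a heparan sulfate proteoglycan that binds growth factors, was at 954 and 815 CPM in #e2c and between 0.239 and 25.9 CPM in the sinusoids, a log2 fold change of 8.67 ± 1.09 (SE). It passed 20 counts in 65.8% of the cells of #e2c. *Cd200*, a ligand that restrains myeloid cells, was at 459 and 513 CPM, against at most 3.67 CPM, a log2 fold change of 8.07 ± 0.70. *Ehd2*, an ATPase at the neck of caveolae, was at 419.5 and 487 CPM and never above 1.83 CPM in the sinusoids, a log2 fold change of 8.79 ± 0.63. *Cavin3*, a coat protein of caveolae, was at 365 and 261 CPM, a log2 fold change of 7.03 ± 0.68. In both pools these 4 genes were higher in #e2c than in each sinusoidal cluster, although *Ehd2* was at 0 CPM in #e2c on 1 of 8 plates and higher than in the sinusoidal cells on 6 of 7 shared plates and lower on 1. Without the male pool their log2 fold changes were 7.61, 6.97, 7.65 and 5.86, and that of *Ehd2* was 7.91 without the female pool. Of the 8 genes listed for caveolae and diaphragms, 4 met the rule on fold (*Ehd2*, *Cavin3*, *Cavin1* and *Plvap*) and 0 were lower (2.59% and 3.23% of all genes), with a median log2 fold change of 1.52 beside 0.04 over all genes tested. *Cav1* itself, which encodes the main caveolar protein, was at 154 and 179.8 CPM and lay inside the sinusoidal range of 2.15 to 246 CPM.

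Elastic fibre genes were higher in part. *Fbln5* and *Fbln2* encode fibulins, which help to assemble elastic fibres and bind them to cells. *Fbln2* was at 1027 and 1028 CPM, with a log2 fold change of 6.05 ± 0.79. *Fbln5* was at 339 and 256 CPM, against at most 4.33 CPM in the sinusoids, with a log2 fold change of 7.59 ± 0.89. *Eln*, which encodes elastin, was at 92.6 and 132 CPM against at most 6.88 CPM. All 3 genes were higher in #e2c than in any sinusoidal cluster in both pools, but *Fbln2* was at 0 CPM in #e2c on 1 of 8 plates. The value of *Fbln5* was 6.85 without the male and 6.90 without the female pool. *Emilin1*, another protein of the elastic fibre, went the other way, with 93.8 and 144 CPM in #e2c and 298 to 593 CPM in the sinusoids. Of 16 tested genes of this list, 5 met the rule on fold as higher and 1 as lower, beside 2.59% and 3.23% of all genes, with a median log2 fold change of 0.49. The list of 15 tested basement membrane genes had 0 higher and 2 lower, beside 2.59% and 3.23% of all genes, with a median of -0.64.

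Of 20 tested genes of vascular tone, 6 were called higher than in the sinusoids by the fit (0.747% of all genes tested), and the rule on fold gave 6 higher and 3 lower (2.59% and 3.23% of all genes), with a median log2 fold change of 0.37. *Edn1* encodes endothelin 1, a peptide that constricts vessels. It was at 479 and 511 CPM, a log2 fold change of 6.23 ± 0.76, although #e6 alone among the sinusoidal clusters reached 353 and 109.8 CPM. *Ednrb*, its receptor, was at 789 and 744 CPM against at most 80.1 CPM, a log2 fold change of 5.16 ± 0.75. Ligand and receptor of this peptide were thus both high in the same cluster. *Ace*, the enzyme that makes angiotensin II, was at 173 and 391 CPM, a log2 fold change of 5.99 ± 1.23. *Npr3*, the clearance receptor for natriuretic peptides, was at 103 and 192 CPM against at most 1.07 CPM, and it was higher on 6 of 7 shared plates and lower on 1. The subunits of the nitric oxide receptor guanylate cyclase, *Gucy1a1* and *Gucy1b1*, were low but above the sinusoids, with 41.9 and 115 CPM and with 67.3 and 33.6 CPM. They passed 20 counts in 10 and 16 of the 114 cells. Without the female pool *Edn1* stood at 5.60 and *Ace* at 5.17, and *Ace* was at 6.76 without the male pool and was not called with #e3 left out. *Nos3*, which encodes the endothelial nitric oxide synthase, was at 291 and 371 CPM, inside the sinusoidal range of 59.0 to 460.2 CPM.

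*Vwf*, which encodes the platelet-binding von Willebrand factor, was at 897 and 1489 CPM in #e2c, and *F8*, its partner coagulation factor, at 716 and 814 CPM. *Vwf* had a log2 fold change of 5.55 ± 0.57 against the sinusoids, where it was highest in #e6 with 420.2 and 509 CPM. *F8* lay within the sinusoidal range of 592 to 1790.0 CPM. Of 13 tested genes of haemostasis, 3 met the rule on fold as higher and 0 as lower, beside 2.59% and 3.23% of all genes, with a median of 0.14. *Atp13a3*, a transporter of the P5 ATPase family, was at 192 and 382 CPM with a log2 fold change of 7.32 ± 1.21, and *Sncg*, which encodes gamma-synuclein, at 257 and 160.4 CPM with 6.20 ± 1.19. *Atp13a3* was higher than in the sinusoidal cells on 6 of 7 shared plates and lower on 1, and its log2 fold change was 6.39 without the female pool. *Sncg* was at 4.87 without the male pool and was not called with #e3 left out.

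The genes called lower in #e2c included receptor genes of the sinusoid, together with genes of other kinds. *Kit*, which encodes the receptor for stem cell factor, was at 6.38 and 6.23 CPM in #e2c and between 303 and 1426 CPM in the sinusoids, a log2 fold change of -6.75 ± 1.15. Although 61.4% of the cells of #e2c had at least 1 *Kit* count, 1 cell of 114 passed 20 counts, against 411 of 654 sinusoidal cells. *Kdr*, which encodes the main receptor for VEGF-A, was at 411 and 364 CPM against at least 1179.6 CPM, a log2 fold change of -2.56 ± 0.41. Both receptor genes were lower on 7 of 7 shared plates. *Stab2*, a scavenger receptor for hyaluronan, was at 308 and 265 CPM, below the sinusoidal range of 611 to 4548 CPM, a log2 fold change of -3.21 ± 0.53. *Maf*, a transcription factor of sinusoidal endothelium, was at 155 and 218 CPM, a log2 fold change of -1.98 ± 0.45. *Stab2* and *Maf* were reduced, not absent, since *Stab2* passed 20 counts in 38 and *Maf* in 47 of the 114 cells. The other named genes were *Wnt2* (log2 fold change -5.11 ± 0.86), *Prelp* (-2.76 ± 0.45), *Myo7a* (-2.72 ± 0.62), *Dhrs3* (-2.56 ± 0.55), *Tcn2* (-2.21 ± 0.36) and *Pde2a* (-2.00 ± 0.36). *Dhrs3* encodes an enzyme that reduces retinal, and *Tcn2* a carrier of cobalamin in blood. The value of *Wnt2* was -3.72 without the male and -6.15 without the female pool, and that of *Dhrs3* -3.16 without the female pool. *Prelp* was lower on 6 of 7 shared plates and higher on 1. *Maf*, *Myo7a* and *Dhrs3* were not called with #e3 left out. *Maf* and *Myo7a* also lost the call with #e7 added and with thinned cells, *Maf* without a filter and with sums per plate, and *Myo7a* with DESeq2's size factors and with the replicate block. Of 21 sinusoidal genes, 13 met the rule on fold as lower and 1 as higher, beside 3.23% and 2.59% of all genes, with a median log2 fold change of -1.33. The list includes *Bmp2*, *Mrc1*, *Gpihbp1* and *Aqp1*, by which the study annotated the sinusoidal clusters, so this count is no independent evidence. The 1 higher gene was *Cd36*, a fatty acid transporter, at 1726 and 1328 CPM against 185 to 1347 CPM.

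**Figure D3:**
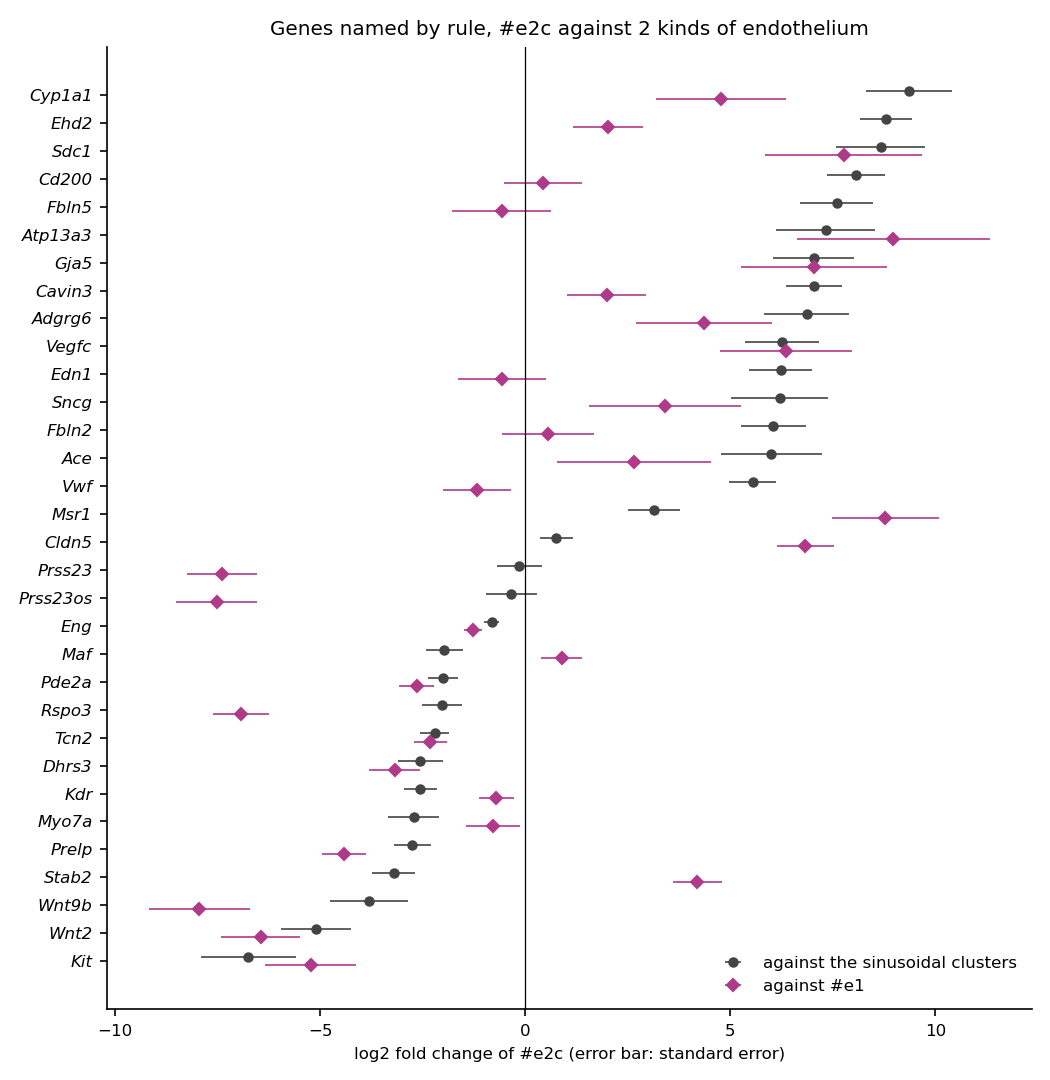
Log2 fold changes of #e2c for the genes named by the rule, against the sinusoidal clusters (grey circles) and against #e1 (purple diamonds), from the edgeR fit; bars are standard errors. *Cd200*, *Fbln5*, *Edn1* and *Fbln2* lie far to the right against the sinusoids and near 0 against #e1, whereas *Sdc1*, *Atp13a3*, *Gja5* and *Vegfc* lie to the right in both comparisons, and *Stab2* is at -3.21 against the sinusoids and 4.20 against #e1.

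Compared with #e1, #e2c had similar levels of *Cd200*, *Fbln5* and *Edn1* in at least 1 pool, far less *Wnt9b*, *Wnt2* and *Rspo3*, and more *Cldn5*, *Msr1*, *Stab2* and *Lyve1*. The fit called 4 genes higher (0.0225% of the genes tested) and 9 lower (0.0506%), and the rule on fold gave 526 higher (2.96%) and 512 lower (2.88%). Of the 461 genes that were 2-fold higher than in the sinusoids, 173 were also 2-fold higher than in #e1, 6 were lower and 282 were neither. All 5 portal vein markers belonged to the 173.

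Some of the genes that were high against the sinusoids were also high in #e1. *Cd200* was at 226 and 466 CPM in #e1, *Fbln5* at 455 and 401 CPM, and *Edn1* at 714 and 709 CPM, levels that were within 2-fold of those in #e2c in at least 1 pool. *Vwf* was higher in #e1, at 2241 and 3017 CPM. Other genes differed between #e2c and #e1. *Sdc1* was at 5.18 and 2.73 CPM in #e1, *Atp13a3* at 0.420 and 0.670 CPM, and *Ednrb* at 33.6 and 64.5 CPM. Endothelin 1 transcripts were thus found in both clusters, and between them the high level of its receptor in #e2c. Outside the endothelium, *Ednrb* stood at 20 CPM or more in 7 of 18 groups and reached 1439 CPM in venous smooth muscle cells. *Sdc1* did so in 10 of the 18 groups and reached 1016.5 CPM in the same cells. Both values were above those in #e2c.

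The 9 genes called lower than in #e1 (0.0506% of all genes tested) included 3 of 13 tested genes of the Wnt list. By the rule on fold, 4 of the 13 were lower and 0 higher (2.88% and 2.96% of all genes). *Wnt9b* and *Wnt2*, which encode secreted Wnt ligands, and *Rspo3*, which encodes a protein that strengthens Wnt signals, are made by central veins and act on the hepatocytes around them. *Rspo3* was at 13.3 and 24.5 CPM in #e2c and at 2605 and 1919.6 CPM in #e1, a log2 fold change of -6.93 ± 0.68. *Wnt9b* was at 1.99 and 3.33 CPM in #e2c and at 651 and 635 CPM in #e1, a log2 fold change of -7.95 ± 1.23. *Wnt2* was at 4.87 and 14.6 CPM in #e2c and at 896 and 786 CPM in #e1, a log2 fold change of -6.46 ± 0.97. Without the male pool these values were -6.24, -7.20 and -5.65, and *Wnt2* was at -7.26 without the female pool. These 3 genes were low in both pools of #e2c, and none passed 20 counts in more than 3 of its 114 cells. *Prss23*, a serine protease gene, was at 3.50 and 8.70 CPM and at 1118 and 909 CPM in #e1, a log2 fold change of -7.40 ± 0.86. Its overlapping partner *Prss23os* had -7.53 ± 0.98, and the counts of this pair cannot be told apart because Smart-seq2 does not keep the strand. Without the male pool the values were -6.55 and -6.58, and with the cells of #e5c added to #e2c they were -4.20 and -4.21, where *Prss23os* was no longer called. *Prelp* (-4.42 ± 0.54), *Pde2a* (-2.65 ± 0.42), *Tcn2* (-2.32 ± 0.40) and *Eng* (-1.28 ± 0.22), which encodes the BMP co-receptor endoglin, completed the list. *Eng* lost its call with DESeq2, with DESeq2's size factors and without a filter, and *Tcn2* with DESeq2's size factors. Of 8 central vein genes, 7 were 2-fold lower in #e2c than in #e1, beside 2.88% of all genes. The list includes *Rspo3*, *Wnt9b* and *Wnt2*, by which the study annotated the central vein, so this count restates that label.

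The 4 genes called higher than in #e1 were *Cldn5*, *Msr1*, *Stab2* and *Lyve1*. *Cldn5*, a tight junction claudin, was at 1396 and 1420.4 CPM in #e2c and at 14.1 and 10.01 CPM in #e1, a log2 fold change of 6.83 ± 0.70. Part of the cells were sorted with a *Cldn5* reporter, and the part of that gate in this difference was not tested. *Msr1*, a scavenger receptor of macrophages, was at 558 and 974 CPM and at 0.875 and 2.46 CPM in #e1, a log2 fold change of 8.78 ± 1.31. It passed 20 counts in 80 of the 114 cells, while the summed level of 9 Kupffer and myeloid markers in #e2c was 124 and 15.1 CPM, so that *Msr1* alone exceeded the whole list. *Stab2* was at 20.3 and 10.2 CPM in #e1, a log2 fold change of 4.20 ± 0.60, and *Lyve1*, a hyaluronan receptor, at 1.61 and 1.25 CPM against 292 and 141 CPM in #e2c, a log2 fold change of 7.18 ± 1.0. Without the male pool *Msr1* was at 8.14 and *Lyve1* at 5.98. On plates, *Stab2* in #e2c ran from 11.7 to 1628 CPM with a median of 202 CPM, and *Lyve1* from 4.24 to 732 CPM with a median of 213 CPM. Of 21 sinusoidal genes, 6 were 2-fold higher and 1 was 2-fold lower in #e2c than in #e1, beside 2.96% and 2.88% of all genes. For *Stab2*, *Mrc1* and *Maf*, #e2c thus stood above #e1 and below the sinusoids in both pools.

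Arterial and Notch genes were present in #e2c together with venous genes. Notch signalling passes between neighbouring cells through the ligands of the Jagged and Delta-like families, and in vessels it favours arterial fate, whereas the nuclear receptor NR2F2 favours venous fate. *Dll4*, a ligand, was at 576 and 510.4 CPM in #e2c, and it was higher than in the sinusoidal cells on 6 of 7 shared plates and lower on 1. Among the sinusoidal clusters it was highest in #e5, at 349 and 331 CPM, and in #e8, at 295 and 338 CPM. In #e6 and #e1 it was at most 11.2 and 3.95 CPM. *Jag1*, the other ligand, was at 218 and 209 CPM and at most 21.4 CPM in the sinusoids, so that it fell off already in the sinusoidal clusters that kept *Dll4*. *Hey1*, a target gene, was at 44.0 and 112 CPM, and *Nrarp*, a target that feeds back on the pathway, at 179.7 and 157 CPM. *Notch1*, the receptor, was at 971 and 580.3 CPM, inside the sinusoidal range of 441 to 1819.8 CPM. Of 16 tested genes of the Notch list, 5 met the rule on fold as higher than the sinusoids and 1 as lower (2.59% and 3.23% of all genes), with a median log2 fold change of 0.40, and 0 were called by the fit in either direction, beside 0.747% and 0.0731% of all genes tested.

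Of 12 tested arterial genes, 7 met the rule on fold as higher and 1 as lower than the sinusoids (2.59% and 3.23% of all genes). Against #e1, 8 were higher and 0 lower (2.96% and 2.88%). The median log2 fold changes were 3.17 against the sinusoids and 3.66 against #e1. *Mecom*, a transcription factor gene, was at 404 and 460.3 CPM, and the Tec family kinase gene *Bmx* at 58.6 and 131 CPM. The list includes *Gja5*, *Jag1* and *Vegfc*, which helped to choose or describe this cluster, so its counts are no independent evidence of an arterial character. Not all arterial genes followed. *Efnb2*, the classic arterial ephrin, was at 84.1 and 75.9 CPM and reached 118 CPM in #e5. *Sox17*, an arterial transcription factor gene, was at 230.0 and 359 CPM within a sinusoidal range of 40.0 to 439 CPM. On the venous side, *Nr2f2* was at 389 and 496 CPM, against 159 to 442 CPM in the sinusoids and 237 and 192 CPM in #e1. *Ephb4*, the venous partner of ephrin B2, was at 464 and 440.0 CPM against 376 to 839 CPM in the sinusoids. Both venous genes lay within or above the sinusoidal range. *Selp*, which encodes the adhesion receptor P-selectin, was at 135 and 102 CPM in #e2c and at 1292 and 1078 CPM in #e1. Of 12 venous genes, 3 were 2-fold higher and 1 was lower than in the sinusoids (2.59% and 3.23% of all genes), with a median of 0.66, and against #e1 the counts were 1 higher and 3 lower (2.96% and 2.88% of all genes).

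**Figure D4:**
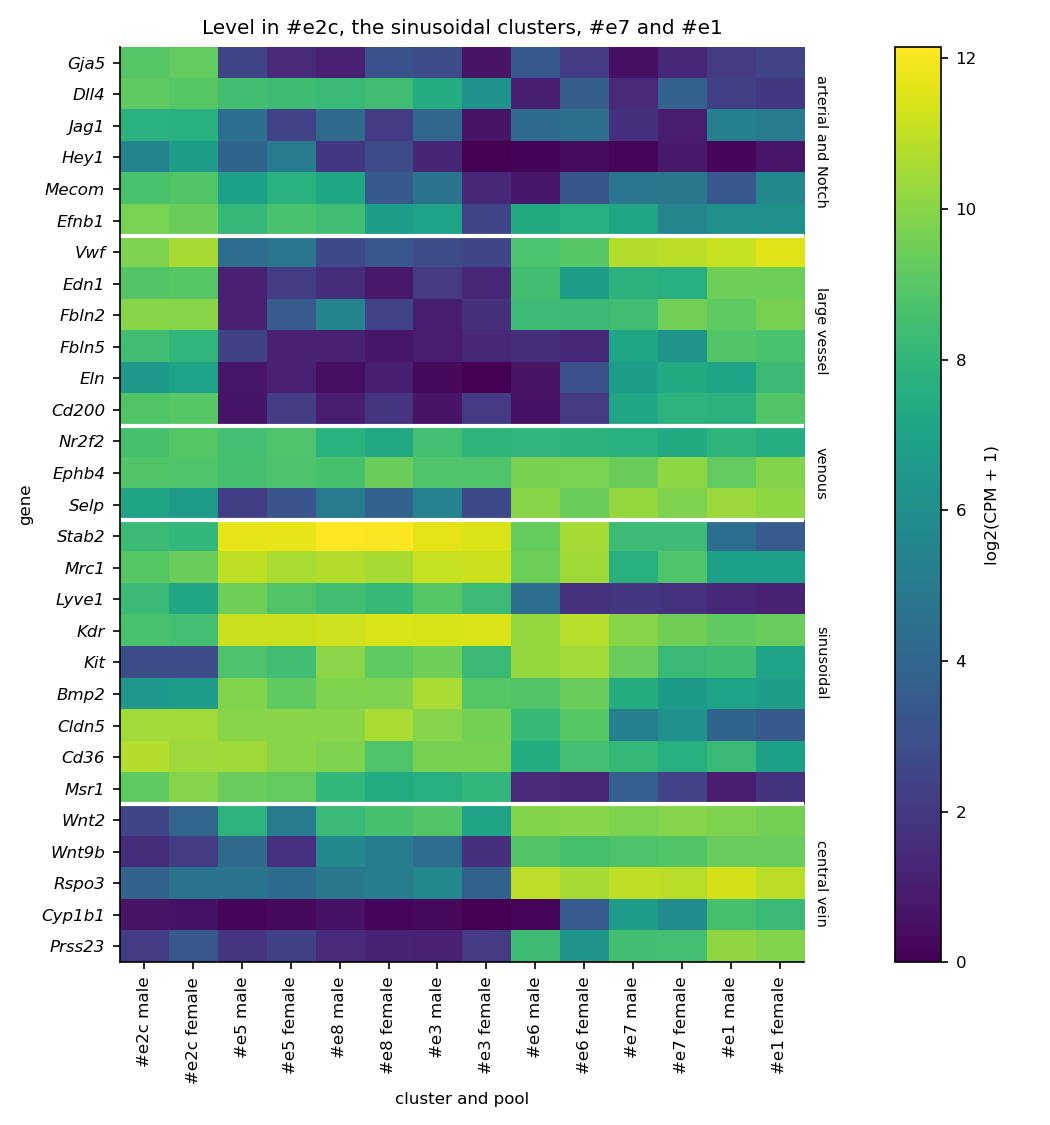
Level of 29 genes in #e2c, the 4 sinusoidal clusters, #e7 (the second cluster that the study assigned to the central vein) and #e1, 1 column for each cluster and pool, as log2(CPM + 1) from dark (0) to yellow. *Dll4* and *Cldn5* are bright from #e2c through #e3 and dark in #e1, *Vwf* and *Fbln2* are bright in #e2c, #e6, #e7 and #e1, and *Kit* is dark in #e2c alone among these clusters.

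The genes of guidance and growth factor signals differed on both sides of ligand and receptor. In the VEGF list of 10 genes, the ligand *Vegfc* alone was higher than in the sinusoids by the rule on fold (2.59% of all genes). The receptors and co-receptors *Kdr*, *Flt4*, *Nrp1* and *Nrp2* were lower (3.23% of all genes). *Vegfc* is a marker by which this cluster was chosen, so its level restates that choice. The fit called 1 gene of the list higher and 1 lower, beside 0.747% and 0.0731% of all genes tested. *Flt4*, the receptor of VEGF-C, was at 539 and 249 CPM. *Nrp1* was at 660.1 and 684 CPM against at least 1272 CPM, and *Flt1*, a decoy receptor, at 684 and 503 CPM within a range of 376 to 918 CPM. *Nrg1*, which encodes the ErbB receptor ligand neuregulin 1, was at 115 and 96.6 CPM in #e2c and at most 2.11 CPM in the sinusoids, and it did not reach 20 CPM in any of the 18 groups outside the endothelium. *Slit2*, which encodes a repellent ligand for Robo receptors, was at 80.4 and 119.9 CPM against at most 3.69 CPM. *Efnb1*, which encodes ephrin B1, was at 822 and 684 CPM, above all sinusoidal values, which ended at 399 CPM. Of 24 tested guidance genes, 4 were higher and 2 lower than in the sinusoids by the rule on fold (2.59% and 3.23% of all genes). By the fit 2 were called higher and 0 lower (0.747% and 0.0731% of all genes tested), and the median was 0.32. *Bmp2*, which encodes a ligand that regulates hepatic iron, was at 88.5 and 102 CPM against at least 469 CPM in the sinusoids. Of 19 tested genes of the BMP and TGF-beta list, 2 were 2-fold higher and 1, *Bmp2*, lower than in the sinusoids, beside 2.59% and 3.23% of all genes.

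Among surface antigens, *Ly6a*, which encodes the stem cell antigen Sca-1, was at 2119 and 1863 CPM against 279 to 1103 CPM, a log2 fold change of 1.91 ± 0.42, and *Ly6c1* was at 112 and 189 CPM against at most 6.04 CPM. *Ly6a* passed 20 counts in 110 of the 114 cells and *Ly6c1* in 28, and *Ly6a* was not called under 5 of the alternatives, which gave 1.73 to 1.90. The Ly6 genes are close copies of each other, so reads could be split among them. Of 8 genes listed as Ly6 or progenitor antigens, 7 were 2-fold higher than in the sinusoids and 0 lower, beside 2.59% and 3.23% of all genes, with a median of 2.55. *Ly6a*, like the marker *Cd34*, is a gene by which the study annotated portal vein cells, so this count is no independent evidence. In the list of leukocyte adhesion genes, *Vcam1* was at 154 and 368 CPM and *Icam1* at 283 and 153 CPM in #e2c, against 680.0 and 830.2 CPM and 918 and 838 CPM in #e1. Both adhesion receptors lay within their sinusoidal ranges. Of the 15 tested genes of this list, 3 were 2-fold higher and 0 lower than in the sinusoids (2.59% and 3.23% of all genes), and 3 were higher and 4 lower than in #e1 (2.96% and 2.88% of all genes).

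High *Cyp1a1* in #e2c stood nearly alone among the genes of its pathway. *Cyp1a1* is the best known target of AHR, the aryl hydrocarbon receptor, which pairs with ARNT after it has bound a ligand and then binds DNA at elements with the core GCGTG. The 250 bases before the start of *Cyp1a1* and of 2 further AHR targets, *Ahrr* and *Cyp1b1*, are shown because these 3 genes went apart in #e2c. They are written 5′ to 3′ along the gene's strand from RefSeq on GRCm38.p6, with GCGTG or its reverse complement in capitals.
*Cyp1a1*, chr9:57697363-57697612, plus strand: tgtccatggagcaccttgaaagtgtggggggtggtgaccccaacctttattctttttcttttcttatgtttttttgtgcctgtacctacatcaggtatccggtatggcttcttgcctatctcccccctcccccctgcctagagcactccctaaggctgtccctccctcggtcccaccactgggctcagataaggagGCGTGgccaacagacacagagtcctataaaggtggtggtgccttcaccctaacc
*Ahrr*, chr13:74292332-74292581, minus strand: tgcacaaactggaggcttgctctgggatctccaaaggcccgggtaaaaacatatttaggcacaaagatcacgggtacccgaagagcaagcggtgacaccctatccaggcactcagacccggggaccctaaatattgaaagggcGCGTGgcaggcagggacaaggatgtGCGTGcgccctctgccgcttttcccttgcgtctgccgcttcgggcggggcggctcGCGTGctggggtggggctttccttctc
*Cyp1b1*, chr17:79715062-79715311, minus strand: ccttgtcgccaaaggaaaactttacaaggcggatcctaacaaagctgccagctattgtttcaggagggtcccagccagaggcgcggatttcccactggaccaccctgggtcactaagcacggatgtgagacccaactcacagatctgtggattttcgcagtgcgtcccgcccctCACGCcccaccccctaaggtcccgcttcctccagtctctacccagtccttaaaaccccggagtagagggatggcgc

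All 3 promoters hold the core, once in *Cyp1a1* at position -54 from the start, 3 times in *Ahrr* and once in *Cyp1b1*, but the levels of the genes differed widely. *Ahrr*, which encodes a repressor of the receptor, was at 0.823 and 0.925 CPM in #e2c. *Cyp1b1*, another monooxygenase, was at 0.549 and 0.494 CPM in #e2c and at 393 and 300.5 CPM in #e1, where *Cyp1a1* was at 29.3 and 20.5 CPM. #e2c and #e1 were thus high for different members of the Cyp1 family. *Ahr* itself was at 112 and 107 CPM in #e2c, within a sinusoidal range of 33.0 to 364 CPM. Its partner *Arnt* was at 25.6 and 90.3 CPM. *Tiparp*, a target that feeds back on the receptor, was at 45.7 and 3.27 CPM, and *Nqo1*, a quinone reductase, at 168 and 212 CPM, within the sinusoidal range of 8.78 to 244 CPM. Of 10 tested genes of the AHR list, *Cyp1a1* and *Nqo1* met the rule on fold as higher and 0 were lower, beside 2.59% and 3.23% of all genes, and the median log2 fold change was -0.04.

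The core GCGTG is common, and on both strands it was found in 32.4% of 32851 promoters of 300 bases, from 250 before to 50 after the start. It occurred in 5 of the 9 promoters found for the AHR list and in 7 of the 12 found for the 15 genes named as highest against the sinusoids. The core TGGGAA, which the Notch effector RBPJ binds, was in 25.6% of all promoters and in 3 of the 14 found for the Notch list. A match is a description of the letters and not of a binding site.

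Of 26 detoxification enzymes, 3 were 2-fold higher and 1 was lower than in the sinusoids, beside 2.59% and 3.23% of all genes, with a median log2 fold change of 0.61. *Ephx1*, which encodes the microsomal epoxide hydrolase that acts on products of CYP1A1, was at 431 and 338 CPM against 11.8 to 158 CPM, a log2 fold change of 3.29 ± 0.41. In #e1 it was at 342 and 349 CPM, so it was high in both clusters. *Mgst1*, a microsomal glutathione transferase, was at 246 and 256 CPM and likewise high in #e1, at 297 and 158 CPM. *Fmo1*, a flavin monooxygenase, went the other way, with 107 and 89.5 CPM against at least 206 CPM in the sinusoids.

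The cells of #e2c differed among themselves in several of the genes named above. Among 153 pairs of 18 genes over the 114 cells, Spearman correlations ran from -0.39 to 0.49. They share libraries and depth and are given as a description. The highest was that of *Cyp1a1* with *Cd200* (0.49 in all cells, 0.47 in male and 0.52 in female cells), and the lowest that of *Cyp1a1* with *Stab2* (-0.39, -0.19 and -0.65). *Cd200* passed 20 counts in 37 of the 55 cells with *Cyp1a1* (67.3%, exact 95% interval 53.3 to 79.3%) and in 12 of the 59 cells without it (20.3%, 10.98 to 32.8%). *Stab2* did so in 8 of the 55 cells with *Cyp1a1* (14.5%, 6.50 to 26.7%) and in 30 of the 59 without it (50.8%, 37.5 to 64.1%). These counts describe the pairs that were highest and lowest by correlation in the same cells, and cells are not replicates. *Vwf* passed 20 counts in 87.3% and 47.5% of these cells, and *Ehd2* in 36 of 55 and 11 of 59. The median depth was 253710 counts in cells with and 213620 in cells without *Cyp1a1*, with 4061 and 3955 detected genes. Among the 38 cells with *Stab2*, which had a median of 278500 counts, *Cd200* was found in 4.

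Arterial and venous genes occurred in the same cells. *Nr2f2* passed 20 counts in 35 of the 59 cells with *Gja5* (59.3%) and in 33 of the 55 without it (60.0%). The correlation of both genes was -0.21. *Nr2f2* was detected in 42 of the 59 cells with *Dll4* (71.2%) and in 26 of the 55 without it (47.3%), and the cells with *Dll4* were also deeper, with a median of 277770 against 178150 counts. The pair of *Ednrb* and *Edn1* went apart. *Edn1* was detected in 23 of the 68 cells with its receptor (33.8%, 22.8 to 46.3%) and in 26 of the 46 cells without it (56.5%, 41.1 to 71.1%), intervals that overlap.

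**Figure D5:**
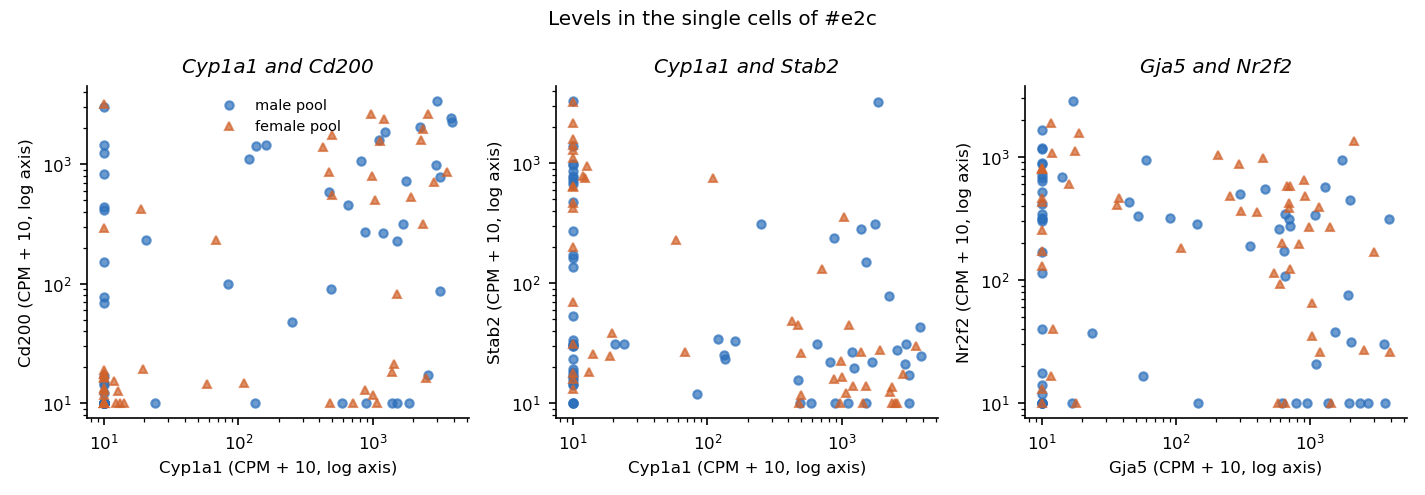
Levels of 3 gene pairs in the 114 cells of #e2c, as CPM + 10 on log axes; circles are cells of the male pool and triangles of the female pool. Cells high in *Cyp1a1* lie mostly high in *Cd200* (37 of 55 at 20 counts) and low in *Stab2* (8 of 55), whereas *Gja5* and *Nr2f2* are found together in 35 cells.

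Male and female cells of #e2c were set side by side without a test, since each sex was 1 pool. By a rule of at least 4-fold, with at least 20 CPM and a count in at least 30% of the cells of the higher pool, 100 genes (0.562% of the genes tested) were higher in the male and 170 (0.955%) in the female cells. *Ddx3y*, a gene of the Y chromosome, was at 72.2 CPM in the male pool and at 0 in the female, and *Xist*, the RNA that silences an X chromosome, at 0.137 and 403 CPM, as the labels of the pools say. *Tsix* overlaps *Xist* on the other strand and cannot be told apart from it here. The highest male ratio was that of *Serpina1e*, a hepatocyte protease inhibitor gene with close copies, at 128.5 and 0.0617 CPM, and the sinusoids showed it too, at 65.1 and 0.431 CPM. *Mup20*, a male urinary protein gene of hepatocytes, was at 33.9 and 0 CPM. *Nr4a1*, an early response gene, was at 337 and 4.13 CPM, beside a summed level of 15 dissociation stress genes that came to 9150.1 and 4075 CPM. Of the 100 male-high genes, 33 were at least 2-fold higher in the male sinusoidal cells too, and of the 170 female-high genes 21 were so in the female ones. The 5 portal vein markers differed between pools by at most the ratio of *Cd34*, which was at 321 and 739.7 CPM.

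Markers of other cell types were low in #e2c with a few exceptions. The summed level of 7 cholangiocyte markers was 6.31 and 16.3 CPM, that of 6 lymphocyte markers 9.39 and 1.36 CPM and that of 11 mesenchymal markers 41.3 and 37.7 CPM. Hepatocyte markers summed to 519 and 383 CPM over 9 genes, above the sinusoidal range of 103 to 456 CPM in the male pool, with *Alb* as the highest at 255 CPM, and their part in the levels of *Serpina1e* and *Mup20* was not tested. Of 6 lymphatic markers, 4 were below 5 CPM and *Lyve1* made most of the sum of 297 and 149 CPM. Of 5 markers of peribiliary vessels, 3 were below 5 CPM and *Cd200* alone gave 487 CPM.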

How the data were processed

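Single cells of mouse liver were sequenced with Smart-seq2. Per the submitters' processing notes the tools were bcl2fastq, Bowtie, Bowtie2, featureCounts, Subread and Seurat on GRCm38 (mm10), without versions. The study removed shallow cells and putative doublets and clustered with pagoda2, and cluster numbers were taken from its deposited annotation. The authors deposited raw counts per gene and cell, 46517 genes and 92 ERCC spike-ins, which were left out of library sizes. Counts were summed per cluster and pool (at least 5 cells), giving 18 sums, and fitted in edgeR 4.0.16 (R 4.3.3, TMM, filterByExpr, quasi-likelihood, Benjamini-Hochberg adjustment over 17793 genes). #e2c was set against the mean of the 4 sinusoidal clusters and against #e1. Pools are the replicates. The fit took its spread from the 2 pools of all 9 clusters together and moderated it across genes. Each printed SE is the value that the fold change and its test statistic imply. It is not the spread of #e2c alone between its pools. Fold rules added a pseudocount of 1 CPM, correlations 10 CPM. Genes were named from the calls with a count in at least 50% of the cells of the higher side and the same direction in both pools, the 15 highest and 10 lowest per comparison. The members and the 34 gene lists were chosen with earlier results of these data known. 1 listed gene was not in the table. The fit was tested on simulated counts. Alternatives were DESeq2 1.42.0, its size factors, no filter, other cluster sets, thinned cells, sums per plate, a pool block, the rule on fold and fits without the sums of #e4 and #e5c, the last 2 chosen after seeing the data.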

Additional observations from a re-analysis of the deposited data

How the results depend on the processing

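Of the 42 log2 fold changes printed, 0 of 562 values under the alternatives changed direction. Of 436 values with a test, 413 stayed on the same side of the threshold and 23 lost the call (*Ly6a*, *Maf*, *Myo7a*, *Eng* and *Ace* among them, most often with #e3 left out or with DESeq2's size factors). Of 126 values without a test, 48 moved by more than the spread. The counts of calls moved far more. Genes called higher than in the sinusoids numbered 133, and 527 without a filter, 568 with sums per plate, 226 with the whole of multilevel cluster 2, 52 with #e3 left out and 461 by the rule on fold. Genes called lower numbered 13, and 192 with DESeq2, 34 without a filter, 62 with at least 10 cells per sum, 20 with thinned cells, 210 with sums per plate, 21 with the whole cluster, 575 by the rule on fold and 54 without #e4 and #e5c. Against #e1, 4 genes were called higher, and 114 with DESeq2, 20 without a filter, 21 with at least 10 cells, 10 with thinned cells, 56 with sums per plate, 526 by the rule on fold and 16 without #e4 and #e5c. Called lower than #e1 were 9, and 136 with DESeq2, 21 without a filter, 37 with at least 10 cells, 192 with sums per plate, 512 by the rule on fold and 27 without #e4 and #e5c. The cause was not tested. Adjusted p-values that DESeq2 gave as NA were not counted. Plates of 1 pool share their animals in a way the labels do not show, so sums per plate are not independent.

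The pool deviations of different clusters correlated between -0.0198 and 0.0938 over 36 pairs of clusters, none above 0.1. This correlation was taken over all genes tested and says little about single genes. *Xist*, *Ddx3y*, *Serpina1e* and *Mup20* differed between the pools in the same direction in #e2c and in the sinusoids. With the replicate block the counts were 125 higher and 14 lower than in the sinusoids and 4 higher and 11 lower than in #e1. Leaving out a pool leaves no residual degrees of freedom, so the counts have no such value.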

Other observations

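Genes outside the lists also set #e2c apart from both the sinusoids and #e1, the only clusters compared here. By a rule chosen after the values were seen, 62 genes were at least 2-fold higher in both pools than both the sinusoids and #e1 and had 20 counts in at least 20% of the cells of #e2c, 38 genes were lower than both and had 20 counts in at least 20% of the sinusoidal cells and of the cells of #e1, and 12 stood 2-fold below the sinusoids and above #e1. Predicted genes, pseudogenes and small RNAs, as told by their symbols, were left out of these counts. Without these further filters 138 genes were lower than both, and 14 stood below the sinusoids and above #e1. First in the order of the smallest fold stood *Col8a1*, which encodes a short-chain collagen of vessel walls, with 381.6 and 249 CPM (male and female pool) in #e2c, at most 1.83 CPM in any sinusoidal cluster and 0.490 and 0.760 CPM in #e1. It passed 20 counts in 36.8% of the cells. *Mal*, which encodes a membrane protein of apical sorting, was at 217 and 230.1 CPM in #e2c and at most 4.50 CPM in the sinusoids. *Syt15*, which encodes a synaptotagmin, was at 162 and 95.9 CPM, and *Car7*, a carbonic anhydrase gene, at 149 and 284 CPM, although *Car7* reached 48.4 CPM in 1 sinusoidal cluster and pool.

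Among the genes lower than both, *Rarb*, which encodes a retinoic acid receptor, was at 4.66 and 7.09 CPM in #e2c and at 239.6 and 246 CPM in #e1, beside the retinal reductase gene *Dhrs3* at 83.7 and 176 CPM against 1150.4 and 1158 CPM. *Gja1*, which encodes connexin 43, was at 15.2 and 5.80 CPM in #e2c and at least 25.2 CPM in the sinusoids, while the connexin 40 gene *Gja5* was at 489 and 600.2 CPM in #e2c. *Dnase1l3*, which encodes a secreted DNase, stood between, at 1039 and 639 CPM in #e2c, at least 2418 CPM in the sinusoids and 499 and 71.5 CPM in #e1.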
